A study of Tursiops truncatus with 28 samples.

Results

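The level of mitochondrial RNA differed 4.15-fold between skin libraries of 28 common bottlenose dolphins (Tursiops truncatus), and 450 nuclear loci correlated with it past a fixed threshold: 177 rose with it and 273 fell. Members were chosen by their correlation with a mitochondrial level, M, which is the mean of log2(FPKM + 1) over those 12 loci of the mitochondrial sequence that are 500 bases or longer. FPKM are fragments scaled to the length of the transcript and to the number of mapped fragments in the library. A nuclear locus was a member if it was 5000 to 100000 bases long, had a mean of 5 to under 100 FPKM, was above 0 in all 28 libraries and had a Pearson correlation with M of at least 0.6 in size. Of 24055 nuclear loci in the table, 5739 met the limits on length and level, and among these 3.08% rose and 4.76% fell. The choice used the levels in all 28 libraries, so the correlations are a description and were not tested.

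All animals came from Barataria Bay, Louisiana, where their skin was sampled during health assessments and archived, and each library is 1 animal. The sessions were July 2016 with 9 females, June 2017 with 8 females and 3 males, and September 2017 with 5 females and 3 males. No treatment is named in the labels, no age was used, and no male was sampled in 2016. Read totals are unknown. Relative depth, read from the spacing of low values, was 0.762 to 1.48, and between 17418 and 18259 of the 24091 loci were above 0 in a library. Loci are named by position on the NIST Tur_tru v1 genome, counted with the first base as 1. The files do not pair them with gene names, so the functions of the members and markers of the skin's cell types were not analysed here.

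Mitochondria carry a small circular genome that is transcribed into long RNAs, which are then cut into messenger, ribosomal and transfer RNAs. Most proteins of the respiratory chain, and those that copy and transcribe mitochondrial DNA, are encoded in the nucleus and imported. In human and mouse skin, living keratinocytes contain mitochondria and lose them as they cornify towards the surface. In a piece of skin, fewer cells of a type and less RNA per cell cannot be told apart.

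M ran from 8.89 in July 2016 female 2 to 10.94 in July 2016 female 5, with a mean of 9.91 ± 0.64 (SD, n = 28). Both extremes fell in one session, and the sessions overlapped widely. Mean M was 9.91 ± 0.79 in July 2016 females (SD, n = 9), 9.97 ± 0.61 in June 2017 females (n = 8) and 10.04 ± 0.57 in September 2017 females (n = 5). It was 9.29 ± 0.26 in the 3 June 2017 males and 10.10 ± 0.52 in the 3 September 2017 males, whose values did not overlap. Between the females of any pair of sessions M differed by 0.13 or less, far below its spread within a session (exact permutation tests, two-sided, p = 0.861 for July 2016 against June 2017, 0.745 for September 2017 against July 2016 and 0.836 for September against June 2017, each with an adjusted p of 0.861 over 4 comparisons). Over both 2017 sessions males lay 0.31 below females (exact permutation test with labels exchanged within session, two-sided, p = 0.274, adjusted p = 0.861). The sessions differed in sign: the males' mean was 0.68 below that of the females in June and 0.06 above it in September. Session and sex together accounted for 7.53% of the variance of M.

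**Figure D1:**
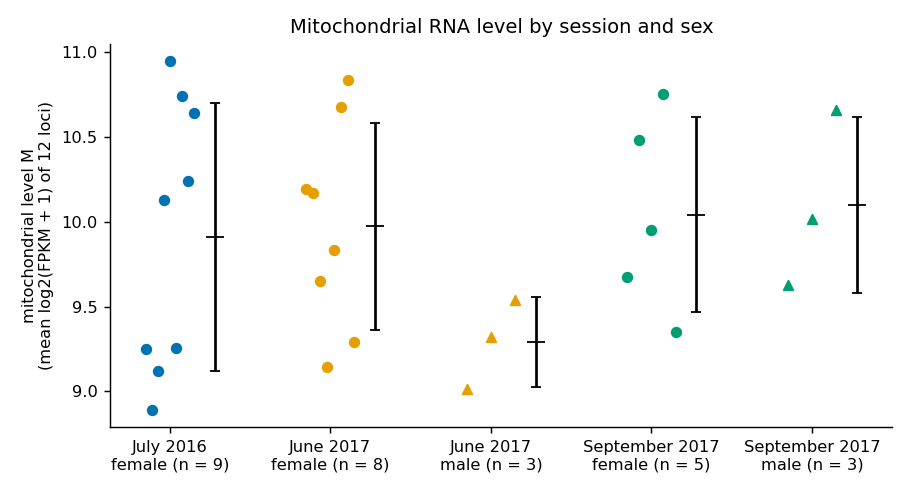
Mitochondrial level M (y axis, mean log2(FPKM + 1) of 12 mitochondrial loci) in each of the 28 libraries, by session and sex (circles, females; triangles, males). Bars to the right of the points give the mean and SD of each group. The groups overlap, except that the 3 June 2017 males lie below the 3 September 2017 males, and both the lowest (8.89) and the highest value (10.94) are July 2016 females.

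The 12 mitochondrial loci did not vary alike. Against the mean of the other 11 loci, 9 of the 12 correlated between 0.914 and 0.993. The locus at positions 13594 to 14121 of the mitochondrial sequence NC_012059.1 correlated at 0.852. The remaining pair stood apart: the locus at positions 73 to 1046 correlated at 0.653, and that at positions 1114 to 2690 at 0.027. The last held 229 ± 31.3 FPKM (SD, n = 28), from 167 to 286, so it was nearly level while others changed up to 9.54-fold between libraries. That widest span belonged to positions 3937 to 4978, which held 57.4 FPKM in the lowest library and 547 in the highest.

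The nuclear members correlated unevenly with the single mitochondrial loci. Members were chosen by their correlation with M, which is itself a mean of mitochondrial loci. Smaller medians with the loci that followed M less closely therefore follow from the choice, and nothing further about the members is read from them. With the 10 that followed M most closely, the median correlation ranged from 0.620 to 0.682 for rising loci and from -0.686 to -0.6003 for falling loci. With the locus at positions 73 to 1046, which varied 2.39-fold, the medians were 0.472 and -0.366, and 22 rising and 2 falling loci reached 0.6 in size. With the level locus at positions 1114 to 2690 the median was 0.0756 for rising and 0.0803 for falling loci, and 0 members of either kind reached 0.6 in their own direction. A mitochondrial locus that M did not use, at positions 9504 to 9849 and 346 bases long, was above 0 in every library. All 177 rising loci correlated positively with it (median 0.480, lowest 0.0986), and all 273 falling loci negatively (median -0.333, highest -0.0158). That locus itself correlated with M at 0.588 in these same libraries, so it is no separate evidence.

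**Figure D2:**
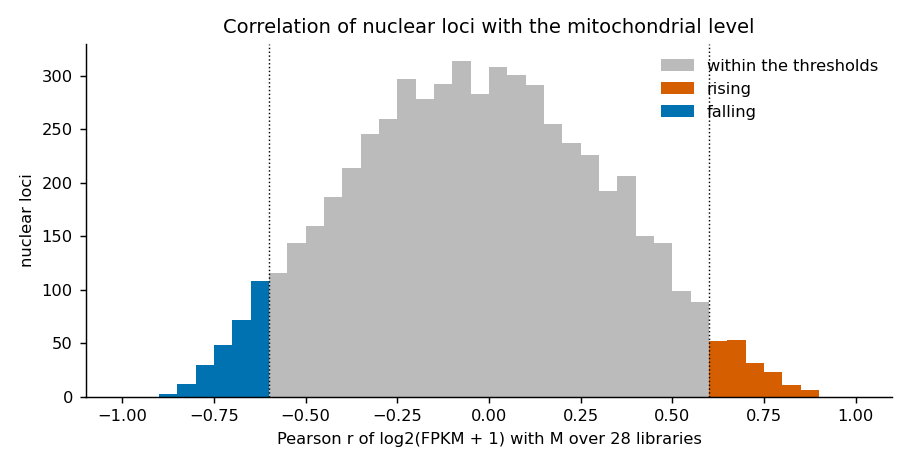
Histogram of the Pearson correlation with M over 28 libraries (x axis) for the 5739 nuclear loci within the length and level limits (y axis, number of loci in bins of equal width). Dotted lines mark the thresholds, beyond which lie 177 rising and 273 falling loci, in the tails of one broad distribution with a median of -0.0357.

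Correlations formed 1 continuous distribution, with no gap at the thresholds. The median over the 5739 loci was -0.0357, and 46.6% of them were above 0. Among rising loci 17 reached 0.8, 55 lay between 0.7 and 0.8, and 105 between 0.6 and 0.7. Among falling loci 15 lay at -0.8 or beyond, 78 between -0.7 and -0.8, and 180 between -0.6 and -0.7. Just inside the upper threshold were the loci at positions 10489913 to 10536899 of scaffold NW_017844293.1 (r = 0.602) and 28070506 to 28097507 of scaffold NW_017844429.1 (r = 0.601). Just outside it were positions 13651396 to 13657923 of scaffold NW_017843657.1 (r = 0.598) and 1208611 to 1227420 of scaffold NW_017844293.1 (r = 0.598). Just inside the lower threshold were positions 12523982 to 12532884 and 5244880 to 5293118 of scaffolds NW_017842757.1 and NW_017842806.1 (r = -0.6005 and -0.6001). Just outside it were positions 7480051 to 7512201 of scaffold NW_017844444.1 and 1148357 to 1228350 of scaffold NW_017844396.1 (r = -0.599 in each). The values of members and non-members thus met at each threshold.

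Among the loci within the limits, the shared pattern was also the leading one, by a small margin. When each of the 5739 loci was scaled to equal variance, the first principal component held 13.1% of the variance and its score correlated with M at 0.899 in size. The second held 11.4% and correlated with M at 0.225. These components contain the members themselves and are given as a description. Relative depth and the number of loci above 0 also correlated with M, as given below, and their part in the first component was not tested.

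**Figure D3:**
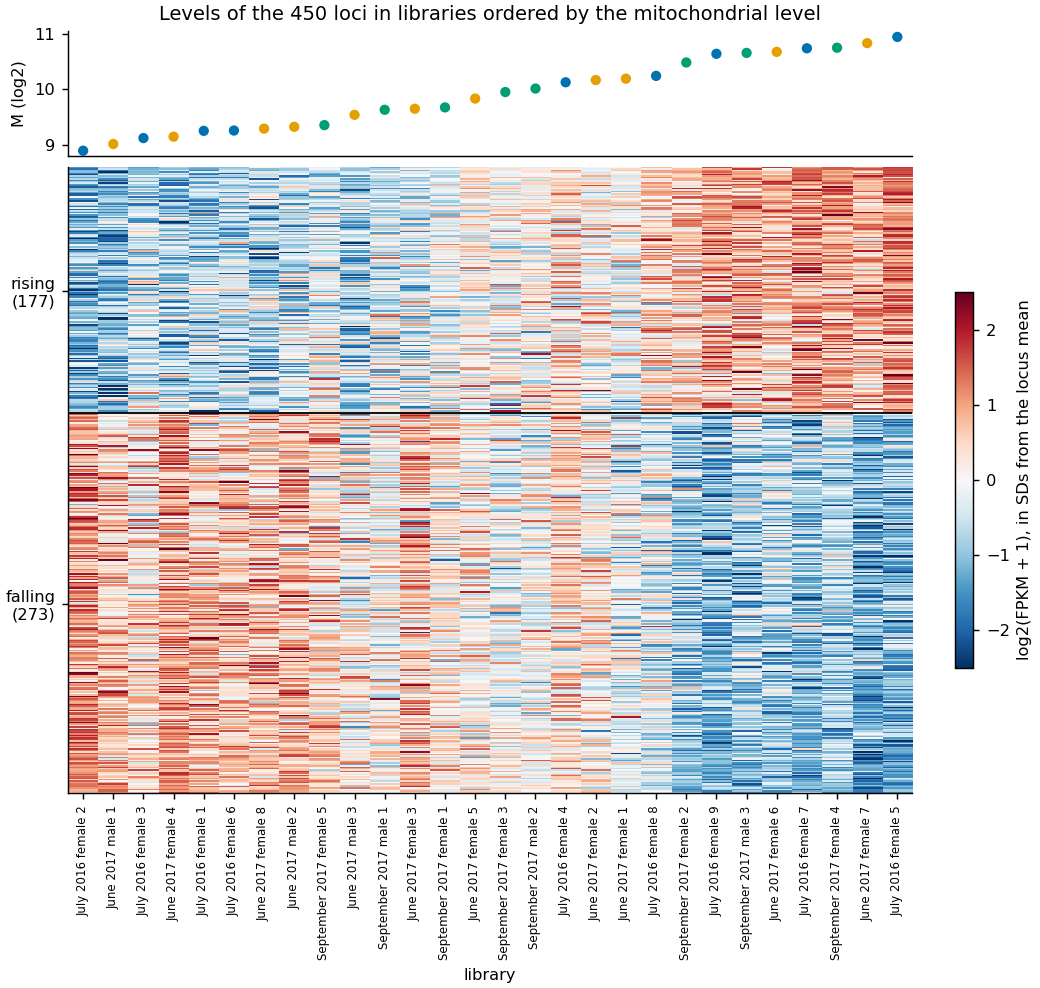
Levels of the 450 members (rows; 177 rising above the black line, 273 falling below it, each ordered by correlation) in 28 libraries (columns, ordered by M from 8.89 on the left to 10.94 on the right). Colours give log2(FPKM + 1) in SDs from the mean of each locus, and the upper panel gives M with July 2016 in blue, June 2017 in orange and September 2017 in green. Rising loci pass from blue to red and falling loci from red to blue across libraries in which the sessions are mixed.

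The rising locus with the strongest correlation, 0.895, lay at positions 496890 to 538672 of scaffold NW_017844458.1. July 2016 females held 51.4, 75.04 and 104 FPKM as the lowest, median and highest value, and June 2017 females 58.7, 71.1 and 104. The September 2017 females held 60.2, 70.2, 66.5, 99.1 and 67.6 FPKM, the June 2017 males 58.6, 63.9 and 59.9, and the September 2017 males 53.4, 65.2 and 86.1. All groups overlapped. The lowest and the highest of all 28 values belonged to the libraries with the lowest and the highest M, at 51.4 and 104 FPKM. Within the sessions the correlation was 0.988 in July 2016 (n = 9), 0.865 in June 2017 (n = 11) and 0.811 in September 2017 (n = 8).

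The next strongest rising locus, at positions 1169089 to 1181013 of scaffold NW_017842632.1 (r = 0.889), was much fainter, with a mean of 5.49 ± 1.90 FPKM (SD, n = 28). It held 2.67, 4.90 and 9.00 FPKM as lowest, median and highest value in July 2016 females and 3.615, 5.34 and 8.84 in June 2017 females. September 2017 females held 5.14, 6.69, 6.14, 8.60 and 5.12 FPKM, June 2017 males 4.39, 3.76 and 3.69, and September 2017 males 3.94, 5.71 and 9.34. The groups overlapped except that all 3 June males lay below all 5 September females. It overlaps another locus of the table, and how fragments were divided between overlapping loci is not known.

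The falling locus with the strongest correlation, -0.868, lay at positions 2908067 to 2924957 of scaffold NW_017843467.1. July 2016 females held 12.5, 23.5 and 35.4 FPKM as lowest, median and highest value, and June 2017 females 11.3, 25.4 and 39.6. September 2017 females held 25.9, 16.3, 19.3, 12.1 and 23.2 FPKM, June 2017 males 31.1, 28.9 and 21.3, and September 2017 males 22.7, 25.4 and 13.0. The groups overlapped, and the correlation was alike in the sessions, at -0.875, -0.869 and -0.887 in July 2016, June 2017 and September 2017. The next, at positions 5492587 to 5498124 of scaffold NW_017842806.1 (r = -0.855), was one of the shorter members at 5538 bases. It held 2.43, 5.39 and 8.13 FPKM as lowest, median and highest value in July 2016 females and 2.41, 7.25 and 9.31 in June 2017 females. September 2017 females held 4.73, 2.88, 6.78, 3.19 and 7.03 FPKM, June 2017 males 10.1, 8.21 and 6.23, and September 2017 males 5.14, 5.50 and 3.622. All 3 June males lay above all 3 September males, and the other groups overlapped.

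**Figure D4:**
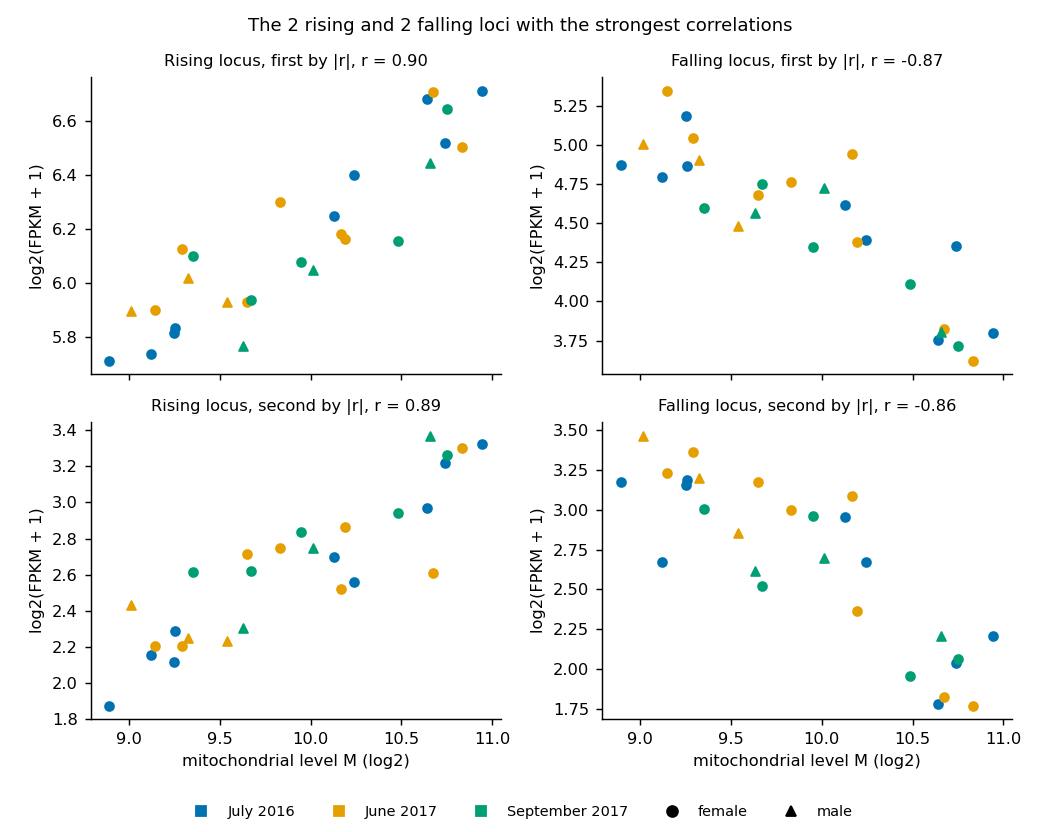
Levels of the 2 rising (left) and 2 falling (right) loci with the strongest correlations, as log2(FPKM + 1) on the y axis, against M on the x axis, 1 point per library. Colours give the session and shapes the sex. Libraries of the 3 sessions are mixed along each relation, with r = 0.895 and 0.889 on the left and -0.868 and -0.855 on the right.

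Most members changed modestly. The slope against M had a median of 0.33 on the log2(FPKM + 1) scale per doubling of the mitochondrial level in rising loci and -0.34 in falling loci. Over the whole range of M this is a median fitted change of 1.60-fold in rising loci (from 1.22-fold to 8.32-fold) and 1.620-fold in falling loci (from 1.21-fold to 3.04-fold), against 1.15-fold in the 5289 loci that passed neither threshold. These fold changes are of FPKM + 1. The rule kept loci by the size of their correlation, so a larger fitted change than in the other loci follows from it. A fitted change above 2-fold was found at 34 rising and 39 falling loci. Members did not vary much more than the rest: the median coefficient of variation over 28 libraries was 21.6% in rising, 22% in falling and 19.6% in the other loci.

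The steepest loci of each direction, picked after their values were seen, behaved differently from each other. The steepest rising locus, at positions 1753650 to 1807971 of scaffold NW_017842452.1 (r = 0.697, slope 1.49), did not climb evenly. It held 15.0 to 34.6 FPKM in 19 libraries and 73.3 to 325 FPKM in the other 9, with none between. July 2016 females held 15.5, 28.3 and 325 FPKM as lowest, median and highest value, and June 2017 females 15.0, 17.5 and 94.7. September 2017 females held 20.4, 132, 109, 146 and 15.7 FPKM, June 2017 males 15.0, 16.1 and 34.6, and September 2017 males 18.1, 101 and 125. Both states occurred in every session, although in June 2017 a single library, female 6, held the higher one, and the correlation there was 0.368. Its rank correlation with M over 28 libraries was 0.568, below the threshold.

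The steepest falling locus, at positions 4943558 to 5004115 of scaffold NW_017844023.1 (r = -0.695, slope -0.78), held 5.01 ± 2.68 FPKM (SD, n = 28), near the lower limit of level. July 2016 females held 1.25, 3.76 and 7.39 FPKM as lowest, median and highest value, and June 2017 females 1.53, 6.94 and 10.9. September 2017 females held 8.22, 1.12, 3.10, 1.29 and 7.59 FPKM, June 2017 males 4.77, 6.73 and 4.66, and September 2017 males 4.97, 3.03 and 4.41. In both 2017 sessions the females spanned more than the males did, and the groups overlapped.

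Other properties of the libraries moved with M. Relative depth correlated with M over 28 libraries (Pearson r = 0.520, permutation p = 0.00482, adjusted p = 0.00803 over 5 measures; Spearman rho = 0.573, permutation p = 0.00182, adjusted p = 0.00455). Without the 2 libraries of most extreme depth r was 0.564, and within July 2016, June 2017 and September 2017 it was 0.629, 0.610 and 0.135. The number of loci above 0 correlated more strongly (r = 0.706, permutation p = 3e-05, adjusted p = 0.00015; rho = 0.702, p = 0.00011, adjusted p = 0.00055; 0.664 without the 2 farthest libraries), with 0.807, 0.748 and 0.532 within the sessions. The share of summed FPKM in loci under 200 bases also correlated with M (r = 0.556, permutation p = 0.00047, adjusted p = 0.00117; rho = 0.523, p = 0.0047, adjusted p = 0.00783; 0.501 without the 2 farthest), with 0.640, 0.605 and 0.486 within the sessions. The short loci include mitochondrial ones, among them that at positions 14122 to 14190 of NC_012059.1 (mean 16347 FPKM, correlation with M 0.634). This share thus measures mitochondrial RNA in part, and its correlation with M is not read as that of a separate property. No such relation was found for summed FPKM (r = 0.253, permutation p = 0.194, adjusted p = 0.243; rho = 0.193, p = 0.324, adjusted p = 0.405; 0.247 without the 2 farthest) or for the share of the 10 most abundant loci (r = 0.0194, p = 0.923, adjusted p = 0.923; rho = 0.0421, p = 0.831, adjusted p = 0.831; -0.0205 without the 2 farthest). Within July 2016, June 2017 and September 2017 these were 0.370, 0.197 and 0.272 for summed FPKM and -0.0292, 0.0851 and 0.339 for the share of the 10 most abundant loci.

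The members shared part of this relation with depth. Their median correlation with relative depth was 0.418 in rising loci (0.0839 to 0.763) and -0.464 in falling loci (-0.721 to -0.0622). With relative depth taken out, 0 of the 450 loci changed sign, the median correlation with M was 0.613 in rising and -0.584 in falling loci, and 101 of 177 and 117 of 273 stayed past 0.6. With the number of loci above 0 taken out the medians were 0.545 and -0.465, 56 rising and 52 falling loci stayed past 0.6, and again 0 changed sign. The part that depth, or the number of loci detected, has in the relation was not tested beyond these values. With depth taken out the leading rising locus kept a correlation of 0.866 and the leading falling locus -0.816.

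The relation recurred within the sessions, which the rule had pooled. In July 2016 (n = 9) the median correlation with M was 0.824 in rising and -0.782 in falling loci. In June 2017 (n = 11) it was 0.665 and -0.692, and in September 2017 (n = 8) 0.662 and -0.651. All 177 rising loci had a positive correlation in July and June and 175 in September, and all 273 falling loci had a negative one in July and June and 269 in September. A correlation past 0.6 in every session was found at 75 rising and 89 falling loci. The medians were largest in size in July 2016, the session in which M also ranged most widely. The part of that wider range was not tested. The same libraries chose the loci, so these counts describe how evenly the relation was spread over sessions.

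Few members differed between sessions. July 2016 against June 2017 called 1 of the 177 rising loci (0.565%) and 1 of the 273 falling loci (0.366%), while 7.24% of the 13192 tested loci and 8.22% of the 5739 loci within the limits were called (limma, adjusted p under 0.05). Of the latter 6.01% (345) were higher and 2.21% (127) lower in July, a split that was 220 against 201 with median of ratios scaling and 218 against 176 with quantile normalization. The rule bears on this count: a locus that shifts between sessions while M does not has a lower correlation over all libraries, and variation with M widens the error of a session difference. Nothing is read from the gap for that reason. When M was added to the model as a covariate, the median standard error of the rising loci fell from 0.133 to 0.0967 and that of the falling loci from 0.140 to 0.106. Then 11 rising loci (6.21%; 9 higher and 2 lower in July) and 8 falling loci (2.93%; 1 higher and 7 lower) were called, against 10.4% of the loci within the limits (7.56% higher and 2.79% lower).

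The rising locus called without the covariate lay at positions 75023258 to 75056950 of scaffold NW_017844625.1 and was higher in July 2016 than in June 2017. July 2016 females held 14.1, 18.8 and 26.8 FPKM as lowest, median and highest value, and June 2017 females 7.45, 13.3 and 23.2. June 2017 males held 12.0, 11.1 and 12.4 FPKM, September 2017 females 18.5, 17.9, 16.2, 27.6 and 19.7, and September 2017 males 20.5, 16.8 and 24.8. July and June females overlapped, whereas all 3 June males lay below every July library and every September one. The log2 difference, July minus June, was 0.56 (SE 0.151, adjusted p = 0.0228, limma). The call was lost in females alone (0.53, adjusted p = 0.0629) and with relative depth as a covariate (0.42, adjusted p = 0.0601). This locus itself correlated with relative depth at 0.665. September was close to July at this locus (September minus July 0.03, adjusted p = 0.956, limma). The difference of September minus June was 0.59 (adjusted p = 0.0871, limma).

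The falling locus called, at positions 431375 to 438466 of scaffold NW_017844689.1, was lower in July 2016 than in June 2017. July 2016 females held 18.3, 24.1 and 36.2 FPKM as lowest, median and highest value, and June 2017 females 24.1, 38.6 and 62.0. June 2017 males held 47.9, 35.8 and 36.4 FPKM, September 2017 females 37.8, 23.5, 31.2, 26.3 and 34.6, and September 2017 males 37.2, 36.2 and 26.8. The groups overlapped, but all 9 July values lay under the median of the June females. The log2 difference, July minus June, was -0.61 (SE 0.151, adjusted p = 0.0130, limma), and -0.60 (SE 0.103, adjusted p = 0.000552) with M in the model. It overlaps another locus of the table.

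September 2017 called 0 members against July 2016 and 0 against June 2017, where 1.95% and 0.0379% of all tested loci, and 1.73% and 0.0174% of those within the limits, were called (limma). At an unadjusted p under 0.05 the comparison with July held 5.65% of the rising loci (10) and 5.86% of the falling loci (16), against 15.3% of the loci within the limits. The comparison with June held 18.1% of the rising loci (32) and 11.4% of the falling loci (31), against 11.8%. With M in the model the June comparison held 18 rising loci (10.2%) and 25 falling loci, against 11.2% of the loci within the limits. The choice of members by M bears on these shares, and nothing about the sessions is read from them. With M in the model, September against July called 2 rising loci, both higher in September, and 1 falling locus, lower in September, against 2.27% of the loci within the limits (0.662% higher and 1.6% lower). Between the sexes 0 members were called, where 0.091% of all tested loci and 0.105% of those within the limits were called. At an unadjusted p under 0.05 there were 6 rising (3.39%) and 7 falling loci (2.56%), against 3.87% of the loci within the limits. The median log2 difference, male minus female, was -0.14 in rising and 0.06 in falling loci, against -0.03 over all tested loci. With M in the model the medians were -0.03 and -0.06. Members were chosen to follow M, and males lay below females in M over both 2017 sessions. The opposite signs without M in the model follow from that choice, and nothing about sex is read from them. The model fits a single sex difference, although that of M differed in sign between June and September.

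Rising and falling loci differed in length, which the rule limited but did not otherwise use. Falling loci had a median length of 15577 bases (quartiles 8282 and 27658) and rising loci one of 26375 (12418 and 44124), close to the 25309 of the loci that passed neither threshold. Of loci of 5 to 10 kb, 8.75% were falling and 3.22% rising, while of loci of 50 to 100 kb 2.08% were falling and 3.36% rising. Lengths are those of the whole interval, introns included. Both kinds were more frequent among abundant loci. At a mean of 5 to 10 FPKM 1.63% rose and 2.05% fell, and at 50 to 100 FPKM 5.18% rose and 8.54% fell. Membership rests on a correlation of fixed size. The log scale used understates changes of low loci, though with 0.1 in place of 1 added before the log 177 loci rose and 272 fell. Whether the rule itself passes fewer loci at low levels was not tested. Nor was it tested whether length and level vary together among these loci.

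**Figure D5:**
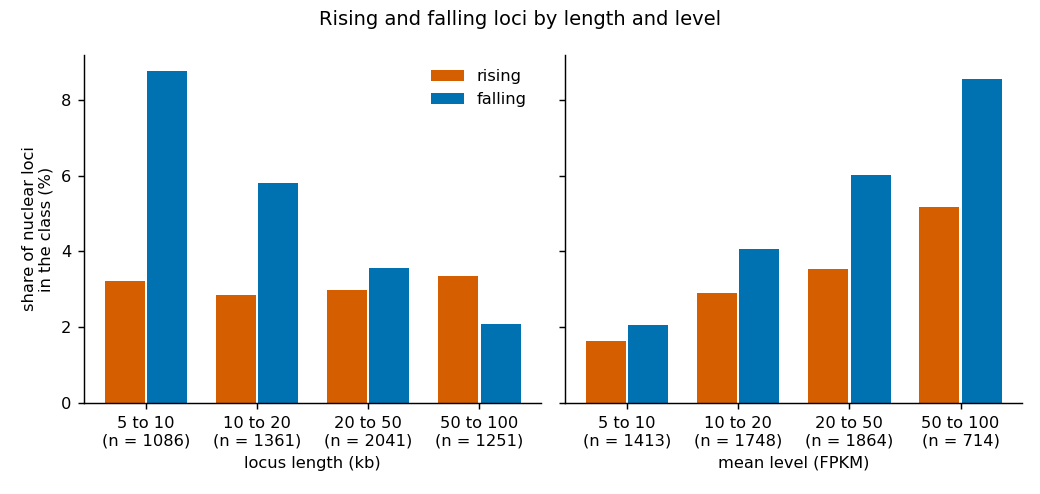
Share of nuclear loci that rose (orange) or fell (blue) with M, as a percentage of the loci in each class of length (left) and mean level (right), with the number of loci in each class under the axis. The share of falling loci drops from 8.75% at 5 to 10 kb to 2.08% at 50 to 100 kb, while that of rising loci stays between 2.87% and 3.36%.

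The rising loci lay on 81 and the falling loci on 116 of 201 scaffolds that held a locus within the limits, and 55 scaffolds held both. Scaffold NW_017844429.1 held 12 rising and 5 falling loci among 192. Scaffold NW_017842632.1 held 6 falling loci and 1 rising locus, the faint one described above, among 29. On some scaffolds with few loci within the limits, the share of falling loci was far above the 4.76% over all such loci. It was 5 of 8 on scaffold NW_017844689.1, which holds the falling locus called between July and June, 4 of 10 on scaffold NW_017842195.1 and 5 of 15 on scaffold NW_017844129.1. These scaffolds were picked after their values were seen. Another locus of the table overlapped 26.6% of rising and 22.7% of falling loci, near the 24.4% of all loci within the limits. Across 5538 pairs of neighbouring loci within the limits, both were falling in 30 pairs, both rising in 5 and 1 of each in 14. The correlations of neighbours with M were only loosely related over these pairs (r = 0.0668 across pairs, which are not independent). Runs of 3 neighbouring falling loci occurred on 2 scaffolds with few loci within the limits. One spans positions 262628 to 301508 of scaffold NW_017844647.1 (r from -0.826 to -0.610), and the other spans positions 89279 to 167690 of scaffold NW_017842195.1 (r from -0.711 to -0.616). In each run 2 of the 3 loci overlap each other.

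The members closest to each other went both ways. On scaffold NW_017842414.1 a rising locus at positions 45183107 to 45235745 (r = 0.741) overlaps a falling one at positions 45227723 to 45250165 (r = -0.769). The rising one held 12.4 ± 2.27 FPKM and the falling one 62.2 ± 13.3 (SD, n = 28), and they correlated with each other at -0.580. Library July 2016 female 2, lowest in M, held 9.34 FPKM of the first and 89.8 of the second, and July 2016 female 5, highest in M, 16.9 and 46.3. The closest pair without overlap lay 42 bases apart on scaffold NW_017844625.1. It was the rising locus called between July and June, at positions 75023258 to 75056950, and a second rising locus at positions 75056993 to 75094596 (r = 0.766). The second held 25.4 ± 8.64 FPKM (SD, n = 28), from 11.5 in July 2016 female 2 to 41.9 in July 2016 female 9. They correlated with each other at 0.577, and the second was not among the loci called between sessions.

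Correlations among members were much smaller once M was taken out, and those between falling loci stayed the largest. The median correlation between 2 rising loci was 0.527, between 2 falling loci 0.543 and between a rising and a falling locus -0.484. After the relation with M was taken out of each locus these medians were 0.0738, 0.141 and -0.00695. Pairs of loci that passed neither threshold had a median of 0.0488 before and 0.0530 after. All of these pairs share the same 28 libraries, and the first set follows from the rule. Together the rising loci took 0.410% to 0.761% and the falling loci 0.688% to 1.25% of a library's summed FPKM.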

How the data were processed

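RNA was extracted from skin and made into directional libraries, per the labels' protocols. The authors made the deposited FPKM values from sequencing reads with a Cufflinks workflow, per the submitters' processing notes. The tools listed there are Cufflinks 2.2.1, TopHat2 2.1.1, Bowtie, Trimmomatic 0.33 and FastQC 0.1. Which annotation and settings were used, and whether strand was, the sources used here do not say. The unit was inferred from that workflow and from the values, and any further scaling is unknown. Columns were matched to libraries by title, and the session came from the sampling date, also for July 2016 female 6, whose title carries another year. A gene table of a different assembly was available and matched 0 sequences, so 0 loci have names.

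All values were analysed as log2(FPKM + 1), a scale that understates changes of low loci. Depth in reads is unknown, so no counting error is given; relative depth came from ratios of low values at 4754 loci. Loci averaging 1 FPKM or more, 13192 in number and including all 450 members, were fitted with session and sex in limma 3.58.1 (R 4.3.3, trend and robust, 24 residual degrees of freedom). P-values are two-sided and Benjamini-Hochberg adjusted over all loci tested, with calls at 0.05. They measure the spread between animals. Permutation tests of library measures drew 100000 resamples, and males and females were exchanged within session in 9240 arrangements. Scripts were tested on simulated data. Alternatives covered the pseudocount, scaling, correlation type, the loci in the mitochondrial level, covariates, thresholds and each library left out.

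The members, comparisons and alternatives were chosen with earlier results of these data known. Named loci are, per direction, the 2 with the strongest correlation, the 2 just inside and the 2 just outside the threshold, those called in a comparison, and the closest members. The steepest loci and the runs of neighbours were added after their values were seen.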

Additional observations from a re-analysis of the deposited data

Results flagged for a closer look

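In 63 combinations of a value with a group of 4 to 10 libraries, 2 held a library that stood apart from its group (Dixon's criterion at 95%, by which chance gives about 5% of such groups). At the steepest rising locus, positions 1753650 to 1807971 of scaffold NW_017842452.1, June 2017 female 6 held a log2(FPKM + 1) of 6.58 (94.7 FPKM), against 4.70 (25.04 FPKM) in the next of the 8 June 2017 females. At a locus just inside the upper threshold, positions 10489913 to 10536899 of scaffold NW_017844293.1, June 2017 female 8 held 3.56 (10.8 FPKM), against 3.87 (13.7 FPKM) in the nearest of that group.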

How the results depend on the processing

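The counts of 177 rising and 273 falling loci were 69 and 66 with all 36 mitochondrial loci in the level, 24 of which are under 500 bases, 109 and 135 with log2 relative depth taken out, 72 and 93 at a threshold of 0.7, and 61 and 56 with the number of loci above 0 taken out, an alternative chosen after seeing the data. Other alternatives raised them, to 196 and 386 in females alone and to 210 and 363 with session and sex taken out. With quantile normalization they were 252 and 228, so that rising loci were then the more numerous. Leaving out 1 library gave 159 to 207 rising and 237 to 319 falling loci. Leaving out the 2 libraries with the lowest and highest M gave 150 and 223, among them 129 and 197 of the members. For the loci named in the text, the correlations of members fell below 0.6 in size in 114 cases over all alternatives run, and none changed sign. Leaving ribosomal RNA loci out of the level by name was not run, as the table names no genes. Without the loci at positions 73 to 1046 and 1114 to 2690, which followed M least, the counts were 174 rising and 294 falling. Among them were 171 and 272 of the members. This alternative was chosen after seeing the data.

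Loci called numbered 955 for July 2016 against June 2017 (733 to 1011 without 1 library), 257 for September 2017 against July 2016 (145 to 292; 160 in females alone), 5 for September against June 2017 (0 to 26) and 12 between the sexes (6 to 15, the lowest without June 2017 male 3). For September against June the count was 8 with median of ratios scaling, 9 with quantile normalization, 16 without the library of uncertain year, and 0 in females alone and with relative depth as a covariate. Members called between July 2016 and June 2017 numbered 1 to 4 rising and 1 to 4 falling without 1 library, the most without July 2016 female 6 (4 rising) and June 2017 female 7 (3 rising, 4 falling). Both called members stayed called in all 28 of these fits. July 2016 against June 2017 called 1 rising and 3 falling loci with median of ratios scaling, and 1 and 4 with quantile normalization. With relative depth as a covariate it called 1 rising and 1 falling locus, both lower in July. September 2017 against July 2016 called 1 falling locus with median of ratios scaling, lower in September, and 0 members with quantile normalization. The small differences of M between females ranged without 1 library from -0.190 to 0.0669 (July minus June), -0.0471 to 0.302 (September minus July) and -0.108 to 0.241 (September minus June), and that of males from -0.451 to -0.194; with all mitochondrial loci July minus June was 0.0300. None passed p of 0.05. No paired analysis was possible because the labels give no replicate numbers and each animal was sampled 1 time.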

Other observations

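All 24 mitochondrial loci under 500 bases were left out of M by their length. Of these, 11 were listed at 0 in every library and 12 in 17 to 27 of the 28 libraries. The locus at positions 14122 to 14190 of NC_012059.1, 69 bases long, was listed at 0 in 17 of 28 libraries and reached 129979 FPKM in another. Its log2(FPKM + 1) correlated with M at 0.634. Among the 24, only the locus at positions 9504 to 9849 was above 0 in every library.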
